A study of Arabidopsis thaliana with 37 samples.

Results

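The genes described here are those whose transcripts were lower in ago1-10 seedlings of Arabidopsis thaliana than in Ler wild type at both 9 and 21 days. They are 212 probe sets of the 6112 that were bright enough to test, out of 8247 on the array. Members were selected on the ago1-10 minus Ler differences themselves. A probe set was taken when the mean of log2(signal + 1.2) in ago1-10 lay at least 0.8 below the Ler mean at each age (a difference of -0.8 or less) and every ago1-10 array lay below every Ler array of that age. The signal is the array value scaled to a common median over arrays, and a probe set was bright enough when it passed 12.2 on at least 3 arrays. The rule leaves out 16 genes by name, of which 13 had a probe set that met it, 16 probe sets in all. In the annotation 67 members match 1 gene (66 loci, since TAPX has 2 probe sets), 2 match several genes, and 143 are not listed and stay unnamed here. Turned to the other direction, the same rule picks 114 probe sets.

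ARGONAUTE1 (AGO1) is the protein that binds plant microRNAs and, guided by them, cuts or represses the transcripts they pair with. DICER-LIKE1 (DCL1) cuts most microRNAs out of their hairpin precursors. Plants with reduced activity of either gene have altered leaf shape, growth and flowering, and their transcripts differ both at microRNA targets and at many genes that microRNAs do not target.

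The study measured RNA of whole seedlings on 37 one-colour Affymetrix arrays in 11 groups. At 9 days there were 3 arrays of Ler wild type, 3 of Col wild type, 4 of the ago1-10 allele and 4 of the ago1-11 allele. The 21-day seedlings comprised Ler in a first set (3 arrays) and a second set (4), Col (3), ago1-10 (3), ago1-11 (3) and dcl1-9 (4), an allele of DCL1 also called caf. The ago1-10 allele was measured on 3 further arrays at 35 days. The accession in which the 2 ago1 alleles were grown is not given in the labels. The 9-day Ler set, the first Ler set and the 9- and 21-day ago1-10 arrays chose the members, so their values are given as a description with no test. The second Ler set, Col, ago1-11, dcl1-9 and the 35-day ago1-10 arrays took no part in the choice, and tests are made on these.

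No 2 arrays held the same values, and the medians of the deposited values differed by 1.58 on the log2 scale between the brightest and the dimmest array. The 4 dcl1-9 arrays had the brightest medians in any 21-day group (50.4 to 58.2), above the second Ler set (35.5 to 48.6). The third 21-day ago1-10 array has the number 3 in its title, and other numbered titles of that age have 2. On the third 35-day array the members stood far above the other 35-day arrays. In whole seedlings, fewer cells of a type and less RNA per cell cannot be told apart. No locus on the leaf, root, senescence or seed marker lists was measured, so these lists could not check the labelled tissue. LHCB genes, also planned as leaf markers, were measured on the photosystem and thylakoid list. They differed from Ler in ago1-10 in both directions, and the tissue was not checked with them. Of 4 measured flower and pollen markers, the tapetum gene A9 (AT5G07230) ranged from 10.8 to 115 in the first Ler set and was at most 16.5 on any other array. The summed signal of all 4 ranged from 168 to 266.5 in the first Ler set and from 117.5 to 158 in 21-day ago1-10. Between these groups the mean of TUA1 was also higher in Ler (115.6 against 69.2). The means of ROXY1 (3.37 against 8.0) and ACT11 (34.0 against 49.8) were lower in Ler. Their part in the choice of members was not tested.

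As a description of the choice, the members' differences in ago1-10 ran from -5.20 to -0.80 at 9 days with a median of -1.32, and from -3.58 to -0.82 at 21 days with a median of -1.41. In 124 of the 212 the difference was larger at 21 than at 9 days. The mean ago1-10 signal lay under 12.2, near background, in 34 members at 9 days and 39 at 21 days, so the size of those differences depends on the 1.2 added. In wild type 5 members at 9 days and 3 at 21 days had a Ler mean under 12.2. Just inside the threshold stood AT2G21960 (-0.805 at 9 and -0.98 at 21 days), the glycosyltransferase gene AT2G30150 (-0.81 and -1.22) and the bZIP gene AT2G40620 (-0.88 and -0.82). Just outside it stood a probe set of AT2G45180 (-1.12 and -0.798), the auxin synthesis gene YUC2 (-0.79 and -1.09) and AT1G49470 (-0.76 and -1.47). AT2G45180 is a member through another probe set.

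Each array's median over the 212 members, on a log2 scale relative to each probe set's mean over all arrays, shows where the other genotypes lie. It ran from 0.50 to 0.62 in 9-day Ler and from 0.57 to 0.68 in the first 21-day Ler set, and from -0.89 to -0.71 and -1.05 to -0.55 in ago1-10 at the same ages, a gap the choice of members sets. Among arrays that took no part in the choice, the 4 dcl1-9 arrays stood at -0.16, 0.00, 0.01 and -0.06, below all 4 arrays of the second Ler set (0.56, 0.29, 0.28 and 0.32). The 3 ago1-11 arrays at 21 days, at -0.17, 0.02 and 0.14, reached from just below the dcl1-9 arrays to above them and lay below all Col arrays of that age (0.46 to 0.79). At 9 days the 4 ago1-11 arrays, each with a strain code of its own, were spread from -0.06 to 0.63 and overlapped Col (0.13 to 0.48).

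**Figure D1:**
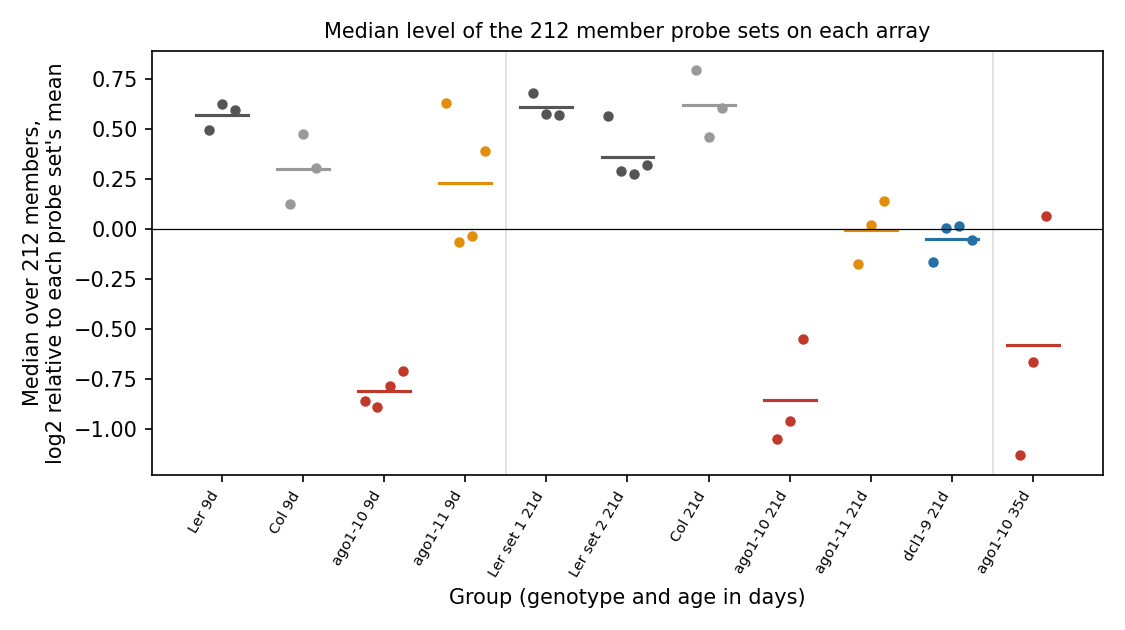
Median over the 212 members on each array (vertical axis, log2 relative to each probe set's mean over all arrays), by genotype and age in days (horizontal axis); points are arrays and bars are group means. The ago1-10 arrays at 9 and 21 days, which chose the members, lie between -1.05 and -0.55, dcl1-9 lies between -0.16 and 0.01, and the third 35-day array stands at 0.06.

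Among the 12 annotated members with the lowest mean of both differences was THI2.2, a thionin gene; thionins are small cysteine-rich peptides with antimicrobial activity. Its signal was 92.9, 62.0 and 73.0 in 9-day Ler and 6.39, 0.72, 5.47 and 7.89 in ago1-10. At 21 days it was 21.2, 13.2 and 25.5 in the first Ler set and 0.77, 1.28 and 0.86 in ago1-10. The mutant arrays were at background at both ages. The second Ler set was itself low, at 23.7, 4.69, 3.20 and 12.2, and dcl1-9 at 1.87, 1.44, 0.61 and 7.30 overlapped it. The dcl1-9 difference of -1.53 ± 0.57 (SE) did not pass limma's test (adjusted p = 0.317).

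The subtilase gene AT2G39850, of a family of serine proteases, was near background in 9-day seedlings (19.4, 6.40 and 4.90 in Ler) and brighter at 21 days in the first Ler set (56.0, 67.5 and 41.6). In 21-day ago1-10 it read 0.86, 1.38 and 19.7, the third array being far above the other two. In dcl1-9 it stood at 23.8, 29.5, 20.7 and 28.7 against 21.8, 30.9, 30.9 and 36.8 in the second Ler set, groups that overlap (-0.21 ± 0.49, limma adjusted p = 0.961).

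AT2G32870 and AT2G32880, members of the TRAF-like (MATH domain) family, lie beside each other on chromosome 2, and BGLU33, a beta-glucosidase gene, lies next to them on the other side. AT2G32880 read 48.4, 21.4 and 50.4 in 9-day Ler and 0.84, 3.88, 1.68 and 8.38 in ago1-10. AT2G32870 read 27.8, 21.4 and 35.3 in Ler and 1.26, 1.84, 1.33 and 3.28 in ago1-10. BGLU33 was dim at 9 days (17.7, 6.92 and 13.5 in Ler) and read 33.6, 22.5 and 18.3 in the first Ler set against 3.60, 4.03 and 15.9 in ago1-10 at 21 days. All 3 genes were thus at or near background in ago1-10 at 9 days. At 35 days AT2G32880 stayed at 10.9, 1.13 and 2.58, with a difference from the second Ler set of -3.52 ± 0.49 (limma adjusted p = 3.97e-06), and BGLU33 stood at 2.11, 6.89 and 15.5 (-2.02 ± 0.46, adjusted p = 0.00215 by limma). Without the first 35-day array the BGLU33 call was lost (-1.41, limma adjusted p = 0.0583). AT2G32870 read 33.8, 27.4 and 25.6 then, below all arrays of the second Ler set (54.1, 53.6, 46.4 and 48.4) but not past limma's test (-0.79 ± 0.37, adjusted p = 0.158). In dcl1-9 none of the 3 passed (limma adjusted p of 0.703, 0.648 and 0.990 for AT2G32880, AT2G32870 and BGLU33).

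AT4G38690, which encodes a phospholipase C-like phosphodiesterase, was bright enough in every group to be followed. It read 119.9, 112 and 87.8 in 9-day Ler and 20.4, 16.9, 24.7 and 22.9 in ago1-10, and 100.2, 76.9 and 82.2 in the first Ler set against 12.4, 11.6 and 20.9 at 21 days. In dcl1-9 it read 36.7, 45.8, 52.0 and 44.8, every array below the second Ler set (112, 53.7, 66.3 and 82.4), though the difference of -0.75 ± 0.31 did not pass limma's test (adjusted p = 0.396). At 21 days ago1-11 (22.0, 42.1 and 48.9) also lay below all arrays of the second Ler set (-1.06 ± 0.34, limma adjusted p = 0.0347). That call was lost without ago1-11 replicate 1 (-0.72, limma adjusted p = 0.255) or 2, and without replicate 1, 3 or 4 of the second Ler set. At 35 days ago1-10 read 14, 12.2 and 35.7 (-1.97 ± 0.34, limma adjusted p = 8.23e-05).

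AT4G33550, of the lipid-transfer protein superfamily, read 141, 168 and 149.8 in 9-day Ler and 42.9, 36.2, 15.6 and 33.8 in ago1-10. Col, at 31.8, 35.7 and 26.8, was as low as the mutant at that age. At 21 days Col read 57.8, 40.9 and 61.6, above all ago1-10 arrays (15.9, 10.1 and 16.4), and ago1-11 at 24.3, 19.6 and 17.3 fell below Col (-1.33 ± 0.31, limma adjusted p = 0.00360). In dcl1-9 the values of 39.4, 31.8, 47.1 and 44.2 overlapped those of the second Ler set (53.8, 31.8, 24.3 and 35.7).

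**Figure D2:**
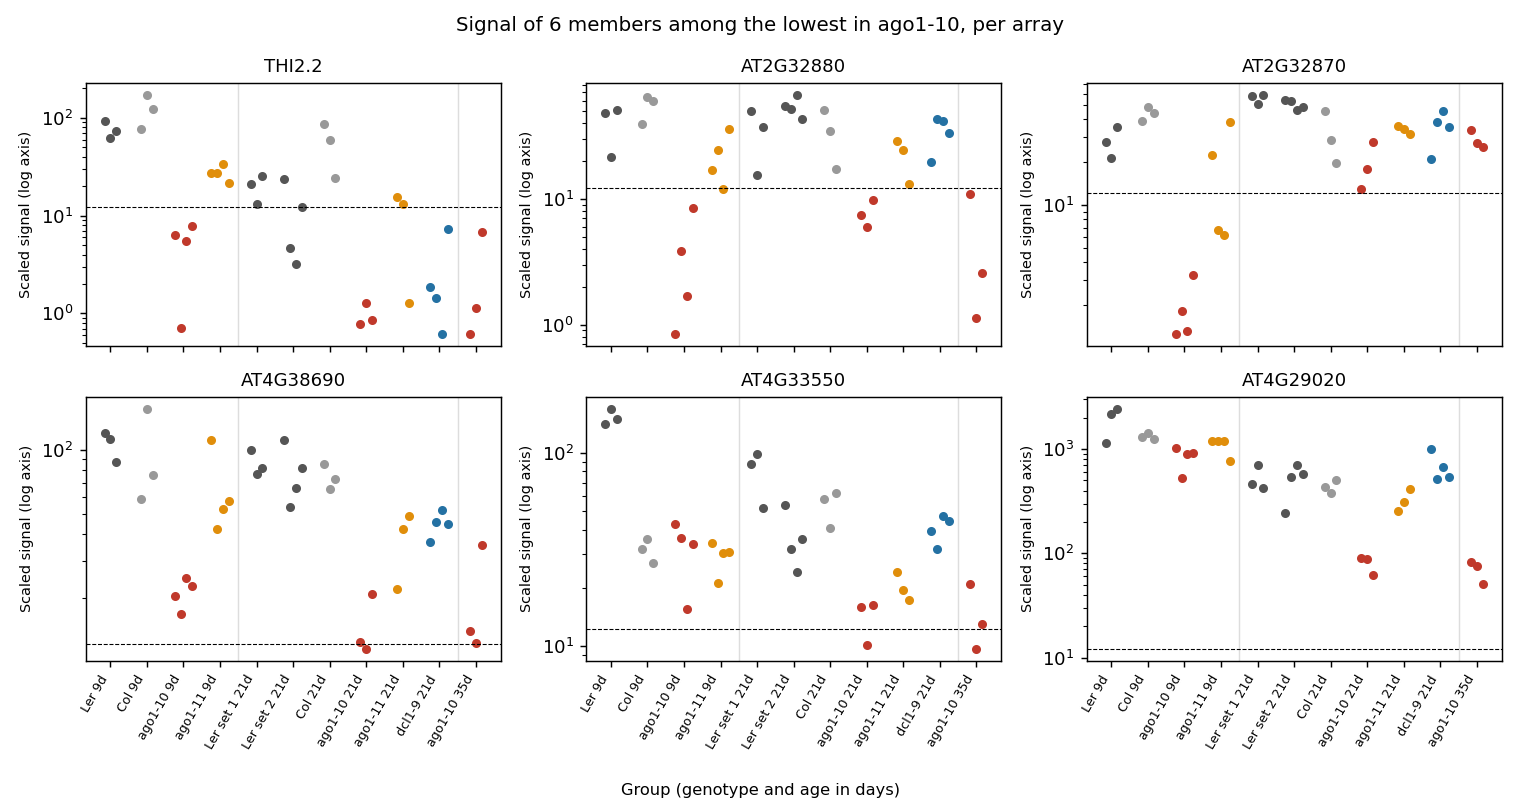
Signal of 6 of the lowest annotated members on each array (vertical axis, scaled signal on a log axis), by genotype and age in days (horizontal axis); points are arrays and the dashed line marks the filter value of 12.2. THI2.2, AT2G32880 and AT2G32870 lie below the line in all 9-day ago1-10 arrays, whereas AT4G29020 lies far above it in every group.

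AT4G29020 and AT4G29030 are a second pair of neighbours, on chromosome 4. AT4G29020 read 1144, 2195 and 2426 in 9-day Ler against 1025, 526, 899 and 919.7 in ago1-10. At 21 days it read 458, 700.0 and 421 in the first Ler set and 90.9, 89.1 and 62.0 in ago1-10, and at 35 days 82.0, 75.3 and 50.7 (-2.81 ± 0.31 from the second Ler set, limma adjusted p = 9.84e-08). It fell with age in Col (-1.59 ± 0.33, adjusted p = 0.00508) and in ago1-11 (-1.74 ± 0.31, adjusted p = 8.30e-04 by limma), with no overlap of the ages in either. AT4G29030 behaved otherwise in ago1-11, where it read 143, 115, 90.4 and 137 at 9 days and 242, 485 and 374 at 21 days (1.55 ± 0.33, limma adjusted p = 0.00712; without 21-day ago1-11 replicate 2, 1.32 with adjusted p = 0.0654). In 35-day ago1-10 AT4G29030 read 35.3, 15.2 and 36.6 against 124, 113, 132 and 123 in the second Ler set (-2.13 ± 0.33, limma adjusted p = 2.07e-05). In dcl1-9 it was not lower but stood at 307, 194, 165 and 182, above all of those Ler arrays (0.74 ± 0.30, limma adjusted p = 0.393). AT4G29020 did not pass in dcl1-9 either (0.45 ± 0.28, limma adjusted p = 0.659).

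Neighbours among the members were AT1G21670 with AT1G21680, the 3 genes on chromosome 2, and the pair on chromosome 4. They form 4 adjacent pairs and hold 7 of the 66 loci, and 32 pairs of adjacent tested loci held at least 1 member. Over all 2553 tested loci 1018 lie in 586 adjacent pairs. That count takes any tested neighbour, whereas the count among members needs a neighbour that is a member, so their shares cannot be compared. The gaps between the neighbours run from 112 to 1942 bases in the TAIR10.1 gene table. The members are spread over all 5 chromosomes, with 14, 26, 3, 19 and 4 loci on chromosomes 1 to 5 (21.2, 39.4, 4.55, 28.8 and 6.06% of the members, against 22.3, 36.9, 5.21, 30.8 and 4.74% of the tested loci).

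Of the other members among the 12, BZIP34 encodes a bZIP transcription factor and was dim in most groups. It read 22.7, 48.0 and 34.3 in the first Ler set and 0.94, 0.64 and 10.2 in 21-day ago1-10, whereas dcl1-9 (4.91, 14.3, 18.2 and 9.62) overlapped the second Ler set (12.6, 17.9, 8.93 and 13.1). AT2G39980 encodes an acyltransferase of the HXXXD family and was low in both ago1 alleles at 21 days. It read 11.7, 11.3 and 13.4 in ago1-10 and 10.6, 8.89 and 21.2 in ago1-11, against 69.6, 73.5, 92.4 and 47.9 in the second Ler set (ago1-11: -2.34 ± 0.34, limma adjusted p = 2.56e-05). In dcl1-9 it read 74.3, 72.4, 57.8 and 63.5, and the difference was -0.05 ± 0.32 (limma adjusted p = 0.990). AT2G16586 ranged from 130.5 to 335 in ago1-10 at the 2 ages, and the second Ler set (203, 566, 724 and 416) overlapped that range. AT1G65230 read 27.4, 33.9 and 71.4 in 21-day ago1-10 and 26.1, 78.9 and 172 at 35 days, with the third array highest at both ages.

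A pair of members belong to the nitrate and peptide transporter family. AT3G21670 read 218, 80.4 and 155 in the first Ler set and 18.7, 5.68 and 32.5 in 21-day ago1-10. In dcl1-9 it read 42.1, 63.5, 79.9 and 49.1, below all arrays of the second Ler set (255, 93.0, 81.0 and 120.4), without passing limma's test (-1.10 ± 0.41, adjusted p = 0.309). In ago1-11 it read 26.8, 40.8 and 38.3 (-1.79 ± 0.44 from the second Ler set, limma adjusted p = 0.00630). The other transporter gene, AT2G26690, read 59.9, 78.4 and 96.6 in 21-day ago1-11 against 266, 249.6, 295 and 252 in the second Ler set (-1.77 ± 0.27, limma adjusted p = 4.21e-05). Its dcl1-9 arrays (157, 271, 213 and 259) overlapped that set. AT2G26690 was also lower in Col, at 99.8, 126 and 133 at 21 days, than in the second Ler set (Ler minus Col 1.15 ± 0.27, limma adjusted p = 0.00484).

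The role lists hold loci named one by one or found by words in the annotated symbols and synonyms, so they miss loci that the annotation gives by number alone, and 143 members have no gene name at all. Counts of listed members are therefore no count of a role among all members. Of 12 measured loci on the photosystem and thylakoid list 2 are members, TAPX and NdhS, and 6 are among those the rule leaves out by name. TAPX encodes the ascorbate peroxidase of the thylakoid membrane, and one of its 2 probe sets read 142, 97.0 and 117 in 9-day Ler against 53.8, 55.5, 68.9 and 73.2 in ago1-10. At 21 days the same probe set read 27.7, 29.3 and 76.4 in ago1-10, 85.7, 86.8, 57.9 and 90.5 in dcl1-9 and 146, 133, 110.0 and 120.2 in the second Ler set. The dcl1-9 arrays all lay below the Ler arrays on both TAPX probe sets, but the differences of -0.65 ± 0.33 and -0.67 ± 0.28 did not pass limma's test (adjusted p = 0.505 and 0.393). NdhS, a subunit of the chloroplast NAD(P)H dehydrogenase complex, read 58.7, 44.3, 50.4 and 50.6 in dcl1-9 and 94.8, 83.8, 63.3 and 62.4 in the second Ler set, again without overlap (-0.55 ± 0.26, limma adjusted p = 0.482). AT1G51400, a small photosystem II protein gene that the list does not hold, read 321, 249 and 592 in 21-day ago1-10 against 1005, 1241 and 1039.5 in the first Ler set, and the second Ler set itself read 755, 338, 315 and 363. Over the whole photosystem and thylakoid list (17 probe sets) the median dcl1-9 difference was -0.41, with 0 probe sets called by limma in either direction.

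The other lists are given as counts of their measured loci. Carbon fixation and photorespiration had 0 members of 5 measured loci (2 left out by the rule), chlorophyll and tetrapyrrole synthesis 0 of 3, and chloroplast redox and protein import 0 of 7 (1 left out). The cell wall and expansin list had 0 of 14 (2 left out), the protease list 0 of 20, and thionins 1 of 2, THI2.2. The protease list misses at least the members AT2G39850, described above, and GAMMA-VPE, a vacuolar processing enzyme gene. The cell wall list misses at least AT2G01610, described below. UDP-glycosyltransferases, which attach sugars to hormones and secondary metabolites, had 2 members of 15 listed loci, UGT73B1 and UGT74D1, and 1 left out, and the member AT2G30150 is not on that list. UGT74D1 was dim, at 25.2, 41.0 and 14.3 in 9-day Ler and 3.77, 10.8, 10.4 and 11.0 in ago1-10.

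The comparison of dcl1-9 with the second Ler set asks whether the members were also lower in a mutant that makes fewer microRNAs. Of the 212 members 189 had a negative difference, with a median of -0.42 (quartiles -0.61 and -0.25), against a median of -0.03 and 53.6% negative over all 6112 probe sets. Single members rarely passed: limma called 4 members lower (1.89%) and 0 higher at an adjusted p under 0.05, against 0.147% of all probe sets called lower and 0.638% called higher. At an unadjusted p under 0.05, 62 members were lower (4.84% of all probe sets) and 3 higher (5.17% of all probe sets). A model with only these 8 arrays called 43 members lower and 3 higher, where 2.11% of all probe sets were called lower and 2.55% higher. The dcl1-9 arrays had brighter deposited medians than the Ler arrays, as given above, and the part of this in the shift was not tested.

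The 4 members called were AAH, AT4G36530 and 2 unnamed probe sets. AAH encodes allantoate amidohydrolase, which releases ammonium from allantoate when purines are broken down. It read 9.27, 19.3, 17.1 and 14.9 in dcl1-9 and 54.1, 30.9, 28.7 and 37.2 in the second Ler set (-1.25 ± 0.30, limma adjusted p = 0.0327). No dcl1-9 array reached the lowest array of that Ler set. The first Ler set was more spread, at 64.7, 15.8 and 48.1. Its second array lay within the range of dcl1-9 and within that of 21-day ago1-11. AAH was low in the other mutants as well, at 15.3, 16.2 and 15.4 in 21-day ago1-11 (-1.17 ± 0.32 from the same Ler set, adjusted p = 0.0145; -1.78 ± 0.34 from Col, adjusted p = 4.09e-04 by limma). The first of these was lost without ago1-11 replicate 1 (limma adjusted p = 0.0546) or Ler replicate 1 (0.0616). In 35-day ago1-10 the 3 arrays read 7.09, 7.13 and 6.75 and lay below all arrays of the second Ler set (-2.21 ± 0.32, limma adjusted p = 7.74e-06).

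AT4G36530 encodes a protein of the alpha/beta hydrolase family. It read 59.3, 86.1, 37.4 and 77.9 in dcl1-9 and 182, 100.3, 103 and 127 in the second Ler set (-0.99 ± 0.25, limma adjusted p = 0.0458). It rose with age in Col, from 65.5, 78.9 and 70.8 to 163, 156 and 181 (1.20 ± 0.29, limma adjusted p = 0.0129), a call lost without Col 9-day replicate 1 or 3 or 21-day replicate 3 (adjusted p up to 0.0613). In ago1-11 the change with age was 0.25 ± 0.27 (limma adjusted p = 0.741), and 21-day ago1-11 lay below Col (-1.18 ± 0.29, adjusted p = 0.00536 by limma). Both dcl1-9 calls sit close to the threshold and were lost under trimmed-mean scaling, with no filter, with 3-decimal readings as written, and on leaving out 6 and 7 of the 8 arrays in turn. AAH stayed called without replicate 3 of the second Ler set or dcl1-9 replicate 2, and AT4G36530 without dcl1-9 replicate 2. AT4G36530 also missed the threshold in the model of these 8 arrays alone. Over all alternatives the limma adjusted p ran from 0.0133 to 0.204 for AAH and from 0.0205 to 0.275 for AT4G36530, both negative throughout.

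IQD22, a calmodulin-binding protein gene with an IQ domain, is named here after its values were seen. It read 34.1, 38.6, 23.3 and 19.1 in dcl1-9 against 61.5, 64.0, 59.2 and 63.0 in the second Ler set, 4 nearly equal arrays, and the difference of -1.13 ± 0.29 fell just short in limma (adjusted p = 0.0524). In the model of these 8 arrays alone it passed (adjusted p = 0.0155 by limma). In ago1-11 IQD22 read 24.9, 24.8 and 27.4 at 21 days, below the same Ler set (-1.23 ± 0.31, adjusted p = 0.00823) and below Col (-1.86 ± 0.33, adjusted p = 1.63e-04 by limma).

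**Figure D3:**
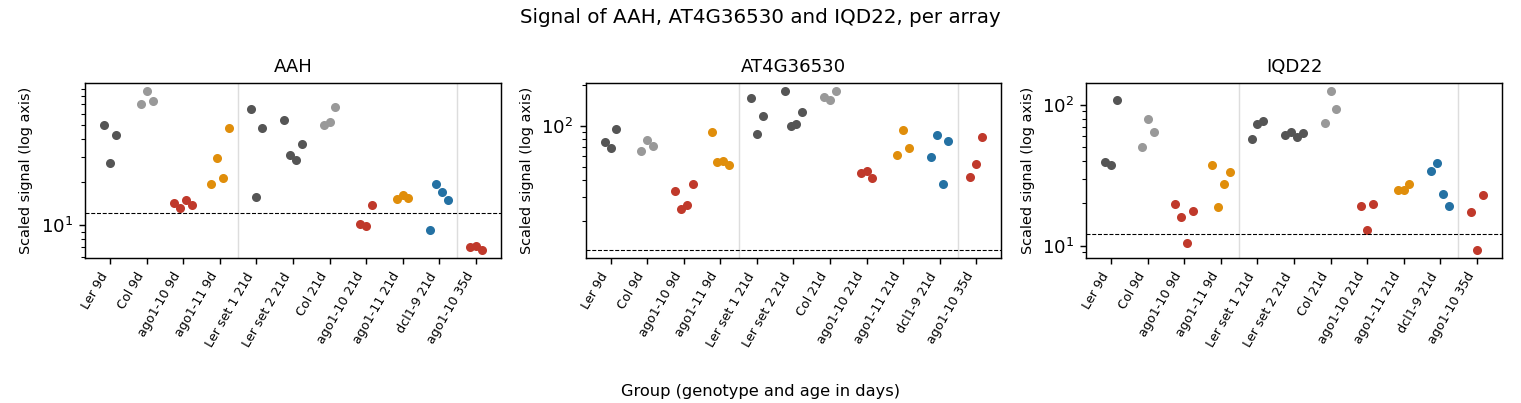
Signal of AAH, AT4G36530 and IQD22 on each array (vertical axis, scaled signal on a log axis), by genotype and age in days (horizontal axis); points are arrays and the dashed line marks the filter value of 12.2. In each gene all 4 dcl1-9 arrays lie below all 4 arrays of the second Ler set.

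Against the Ler arrays that chose the members, ago1-11 is given as values only. At 9 days all 4 ago1-11 arrays lay below all 3 Ler arrays in 48 members (22.6%; 7.92% of all probe sets), with a median difference of -0.34. At 21 days all ago1-11 arrays lay below the first Ler set in 99 members (46.7%; 8.21% of all probe sets), with a median of -0.60. The shared Ler arrays fix part of this direction.

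Set against the second Ler set, which did not choose the members, 21-day ago1-11 had 42 members called lower by limma (19.8%; 4.94% of all probe sets) and 6 higher (2.83%; 6.59% of all probe sets). This comparison was added after the data were seen. The median over members was -0.35 with 151 of 212 negative, against 0.04 over all probe sets. UGT73B1, AT2G39980, AT1G54520, AT3G21670, AT2G26690 and AT2G20670 had the largest falls among named members whose arrays did not overlap. For AT1G54520 (-2.17 ± 0.56, limma adjusted p = 0.00988) this rests on 1 ago1-11 array at 3.16, the others being 90.0 and 67.0. Without that array, replicate 1, the difference was -0.78 (limma adjusted p = 0.253), and in a model of the compared groups only the adjusted p was 0.0968. The named members that rose were AT4G29030 (1.51 ± 0.33, adjusted p = 0.00217), AT2G47440 (1.09 ± 0.31, adjusted p = 0.0193) and AT1G51400 (1.04 ± 0.34, adjusted p = 0.0411 by limma). The AT2G47440 call was lost without ago1-11 replicate 2 or 3 or replicate 2 of the second Ler set (limma adjusted p up to 0.0853). The AT1G51400 call was lost without any 1 of the 7 arrays other than replicate 1 of that Ler set (adjusted p up to 0.152 by limma). All 3 are below the first Ler set in 21-day ago1-10, as the rule requires. AT1G51400 in 21-day ago1-11 (984, 828 and 765) also lay below all arrays of the first Ler set (1005, 1241 and 1039.5). Its direction in ago1-11 therefore depends on the Ler set used. Without ago1-11 replicate 1 the count of lower members was 22.

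AT2G20670 read 483, 125, 179 and 332 in 9-day ago1-11, within or above the range of Ler (203, 111 and 135), and 33.2, 22.4, 24.2 and 44 in ago1-10. At 21 days ago1-11 read 112, 64.2 and 143, below the second Ler set (446, 287, 395 and 249; -1.72 ± 0.42, limma adjusted p = 0.00672), and dcl1-9 read 117, 186, 225 and 151, also below it (-1.02 ± 0.39, limma adjusted p = 0.349). The first Ler set, at 200.2, 47.4 and 91.5, was far dimmer than the second and overlapped ago1-11. Without ago1-11 replicate 2 the ago1-11 call was lost (-1.40, limma adjusted p = 0.0606).

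Against Col, a wild type that also took no part in the choice, ago1-11 had 36 members called lower by limma at 9 days (17.0%; 6.66% of all probe sets) and 10 higher (4.72%; 4.76% of all probe sets). The median over members was then -0.01, with 108 of 212 negative. At 21 days 59 were called lower (27.8%; 6.54% of all probe sets) and 5 higher (2.36%; 5.20% of all probe sets), and the median was -0.59 with 174 negative. In a model of these 6 arrays alone limma called 44 members lower at 21 days (3.80% of all probe sets) and 2 higher (2.83%). With the replicate letters as a block in that model it called 93 lower (9.88% of all probe sets) and 5 higher (7.76%), so that calls rose over all probe sets too. Accession and genotype cannot be told apart in these comparisons. Without Col replicate 2 the 9-day count of lower members was 21, and without ago1-11 replicate 1 the 21-day count was 37.

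The second Ler set itself had 23 members below Col at 21 days (10.8%; 5.01% of all probe sets) and 4 above (1.89%; 2.62% of all probe sets) by limma, with a median of -0.28. Under scaling to a trimmed mean, which shifts the median of all probe sets by 0.135, 15 members were lower. The count rested on single arrays too, being 8 without Col replicate 1, 15 without Col replicate 2, and 11, 13 and 15 without replicates 2, 3 and 4 of the second Ler set.

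Several of the largest ago1-11 differences from Col are in members whose 2 wild types also differed. AT4G33960 read 1084, 593 and 741 in 21-day Col, 171, 75.2, 78.1 and 87.3 in the second Ler set and 62.9, 50.6 and 59.3 in ago1-11. Its difference from Col was -3.74 ± 0.32 for ago1-11 (adjusted p = 2.07e-10) and -2.995 ± 0.30 for the second Ler set (adjusted p = 5.45e-09 by limma). UGT73B1, a flavonoid glucosyltransferase gene, read 164, 219 and 172 in 9-day Col, 14.6, 19.6 and 15.6 in Ler and 2.08, 7.16, 15.1 and 2.44 in ago1-11. It also lay below the second Ler set in 21-day ago1-11, at 1.83, 8.78 and 2.57 against 28.2, 28.6, 23.1 and 25 (-2.50 ± 0.52, limma adjusted p = 0.00156), whereas dcl1-9 at 26.4, 33.7, 30.0 and 24.7 did not (0.12 ± 0.48, adjusted p = 0.975 by limma).

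CP5, of the START family of lipid-binding proteins, read 1814, 1889 and 1811 in 21-day Col, 691, 362, 323 and 280.1 in the second Ler set and 475, 772 and 693 in ago1-11. The second Ler set was thus lower than Col (-2.24 ± 0.40, limma adjusted p = 2.31e-04). The ago1-11 arrays lay below Col and overlapped both the second and the first Ler set (791, 599 and 784). AT4G17840 read 352, 440.2 and 357 in 9-day Col, 132, 123 and 78.3 in Ler and 78.3, 45.7, 50.9 and 101 in ago1-11 (ago1-11 minus Col -2.52 ± 0.28, limma adjusted p = 2.94e-08). ARAB-1 and AT5G46900, a lipid-transfer-like gene, were likewise lower than Col in the second Ler set (-1.50 ± 0.41 and -2.02 ± 0.50, limma adjusted p = 0.0159 and 0.00791). The ARAB-1 call was lost without Col replicate 2 or 3 (limma adjusted p up to 0.0564), and that of AT5G46900 without Col replicate 3 or replicate 2 of the second Ler set (up to 0.0916). THI2.2 was lower than 21-day Col (87.5, 59.5 and 24.1) both in ago1-11, at 15.5, 13.3 and 1.28 (-2.61 ± 0.66, adjusted p = 0.00719), and in the second Ler set (-2.41 ± 0.62, adjusted p = 0.00971 by limma). Both THI2.2 calls were lost without Col replicate 1. The ago1-11 call was also lost without ago1-11 replicate 3 (-1.73, limma adjusted p = 0.0947), and the Ler call without replicate 3 of that set (-2.04, adjusted p = 0.0573 by limma).

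**Figure D4:**
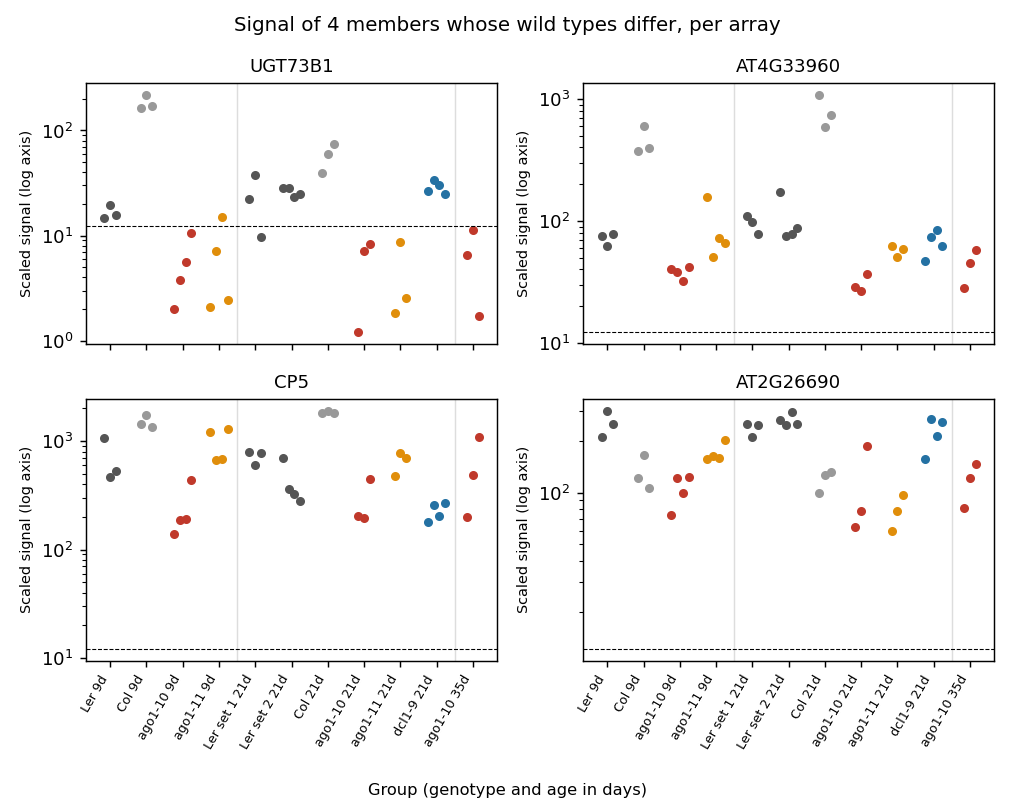
Signal of UGT73B1, AT4G33960, CP5 and AT2G26690 on each array (vertical axis, scaled signal on a log axis), by genotype and age in days (horizontal axis); points are arrays and the dashed line marks the filter value of 12.2. Col lies above both 21-day Ler sets in UGT73B1, AT4G33960 and CP5 and below them in AT2G26690.

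Other members lay below Col in 21-day ago1-11 without a called difference between the second Ler set and Col. AT2G29310, a gene like tropinone reductase, read 43.4, 46.6 and 30.4 against 393, 242 and 121 (-2.48 ± 0.38, limma adjusted p = 1.58e-05), and also lay below the second Ler set (-1.65 ± 0.36, limma adjusted p = 0.00201). That set overlapped Col. The first Ler set, at 45.6, 49.7 and 84.1, lay below all 21-day Col arrays and overlapped ago1-11. Ler at 9 days (54.2, 114.5 and 82.8) likewise lay below all Col arrays of that age (156, 123 and 126). AT3G16370, of the GDSL lipase and esterase family, read 94.0, 128 and 64.7 in ago1-11 against 386, 366 and 353 in Col (-1.98 ± 0.34, limma adjusted p = 9.27e-05). All arrays of the first Ler set (184, 159 and 266) and of the second (292, 218, 277 and 270) also lay below Col. AT2G47440 was higher, at 35.3, 62.4 and 63.1 against 16.5, 24.4 and 32.3 (1.10 ± 0.33, limma adjusted p = 0.0261). At 9 days AT1G14930 was called above Col (1.31 ± 0.30, limma adjusted p = 0.00297), and without Col replicate 2 it was not (0.91, adjusted p = 0.0799). BZIP34 also lay above Col on every array at 9 days, with a limma adjusted p of 0.0516. The AT2G47440 call was lost without Col replicate 1 or 2 and without ago1-11 replicate 2 or 3, with limma adjusted p up to 0.143.

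HAT2, an auxin-induced homeobox gene of the HD-ZIP class, was also chosen for naming after its values were seen. It read 52.7, 43.5 and 51 in 9-day Ler, 65.6, 64.7 and 54.7 in Col, 16.5, 20.1, 20.3 and 14.2 in ago1-10 and 29.8, 26.7, 26.0 and 31.9 in ago1-11. The ago1-11 arrays fell between the ago1-10 and the wild-type arrays without touching either (ago1-11 minus Col -1.07 ± 0.22, limma adjusted p = 8.51e-04). In dcl1-9 HAT2 read 27.6, 35.6, 30.8 and 26.8 and overlapped the second Ler set (53.1, 31.6, 46.3 and 41.0).

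At 35 days ago1-10 arrays, set against the 21-day second Ler set, had 114 members called lower by limma (53.8%; 8.87% of all probe sets) and 0 higher, where 7.31% of all probe sets were called higher and 0 members were higher at an unadjusted p under 0.05 (13.6% of all probe sets). The median over members was -0.99 with 204 of 212 negative, against 0.05 over all probe sets. Age and genotype cannot be told apart here, and the allele is the one that chose the members. The 3 arrays differed widely, with medians over members of -1.13, -0.67 and 0.06. Without replicate 3 limma called 147 members lower, and without replicate 1 it called 65. The title of replicate 1 carries the number that most numbered 21-day titles carry, although its label gives 35 days. AT3G16370 had the lowest difference among named members, at 7.96, 20.2 and 51.4 against 292, 218, 277 and 270.4 (-3.60 ± 0.32, limma adjusted p = 9.88e-10), followed by AT2G32880, AT2G20670 (-3.04 ± 0.42, adjusted p = 3.97e-06), AT4G29020, AAH and AT4G29030. CP5, at 200.01, 483 and 1078, had no difference past the test (0.28 ± 0.40, limma adjusted p = 0.711).

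**Figure D5:**
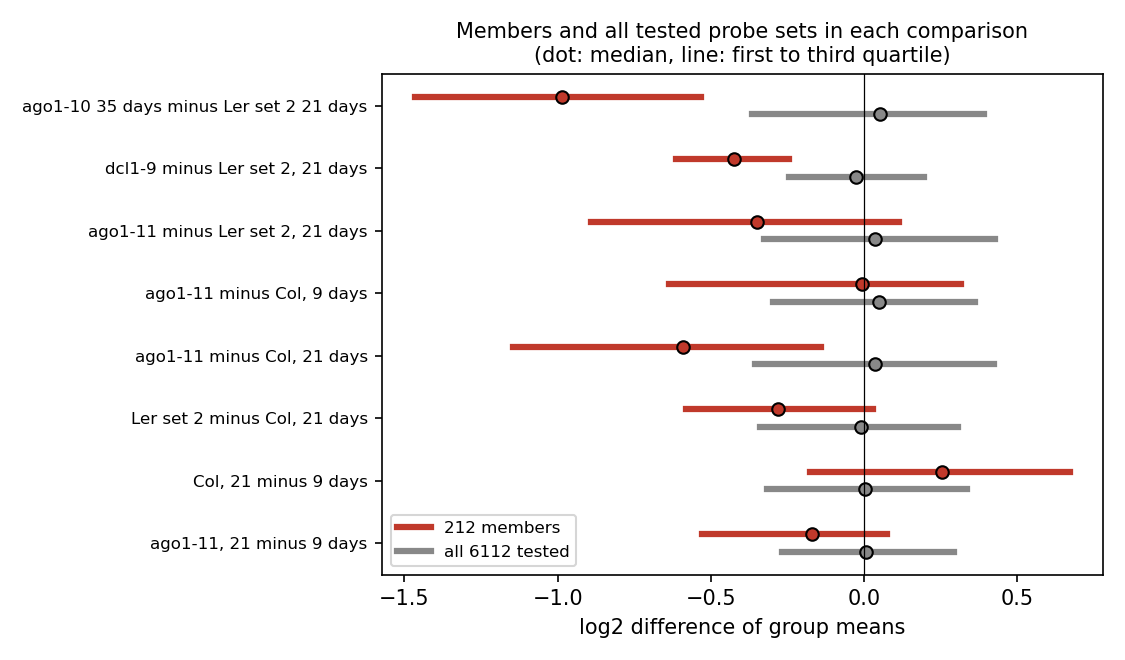
Log2 difference of group means (horizontal axis) for the 212 members (red) and all 6112 tested probe sets (grey) in each of 8 comparisons (vertical axis); dots are medians and lines run from the first to the third quartile. The members' median is -0.99 in 35-day ago1-10, -0.42 in dcl1-9 and -0.01 in 9-day ago1-11 minus Col, where it nearly meets that of all probe sets.

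From 9 to 21 days the members' median change was positive in Col and negative in ago1-11. In Col the median was 0.25, with 13 members called higher by limma (6.13%; 1.77% of all probe sets) and 4 lower (1.89%; 1.44% of all probe sets). In ago1-11 it was -0.17, with 5 higher (2.36%; 1.44% of all probe sets) and 8 lower (3.77%; 1.08% of all probe sets). The difference between the 2 changes was itself called in 1 member by limma, 0.472% of them, where 0.245% of all probe sets were called in that direction, and in 0 members the other way (0.327% of all probe sets; 9 members at an unadjusted p under 0.05, against 5.76% of all probe sets). That member is a probe set with no gene name, which read 10.7, 12.6 and 15.1 in 9-day Col and 83.2, 48.4 and 48.8 in 21-day Col, but 120.2, 48.1, 28.6 and 38 and then 26.1, 29.9 and 30.6 in ago1-11 (-2.87, limma adjusted p = 0.00608). The median of this difference over members was -0.48, with 162 negative, against 0.01 over all probe sets. The Col counts rest on 3 arrays an age: without Col 9-day replicate 3 they were 3 higher and 1 lower. By their titles, all 21-day ago1-11 arrays share a strain code that only 1 of the 9-day arrays carries. In ago1-11, age and strain code therefore cannot be fully told apart, and the difference between the 2 changes shares this limit.

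Among named members, AT3G21670 (1.78 ± 0.47, adjusted p = 0.0286), AT2G15580 (1.53 ± 0.39, adjusted p = 0.0222) and AT4G36530 rose with age in Col by limma, and in ago1-11 none of these 3 passed. AT2G01610, of the pectin methylesterase inhibitor family, rose in both, from 31.0, 30.3 and 32.6 to 105, 64.3 and 56.7 in Col (1.19 ± 0.27, adjusted p = 0.00890) and from 29.3, 21.4, 29.6 and 29.8 to 114, 75.5 and 96.6 in ago1-11 (1.74 ± 0.25, adjusted p = 5.07e-05 by limma). AT4G17840 also rose in ago1-11 (1.43 ± 0.28, limma adjusted p = 0.00296). AT3G16370 (-1.54 ± 0.32, adjusted p = 0.00518), AT2G26690 (-1.13 ± 0.27, adjusted p = 0.0160) and ARAB-1 (-1.47 ± 0.41, adjusted p = 0.0447 by limma) fell in ago1-11, besides AT4G29020. The ARAB-1 call was lost without any 1 of the 7 arrays other than 21-day replicate 2. Without 21-day replicate 1 its change was -0.80 (limma adjusted p = 0.487), in a model of the compared groups only the adjusted p was 0.212, and trimmed-mean scaling, no filter and readings as written ended it too. The AT2G26690 call was lost without 9-day replicate 4 or 21-day replicate 1 or 2 (limma adjusted p up to 0.135). In Col the AT3G21670 call was lost without any 1 of the 6 arrays other than 21-day replicate 1 (up to 0.123), that of AT2G15580 without 9-day replicate 1 or 3 or 21-day replicate 1 (up to 0.12), and that of AT2G01610 without 21-day replicate 1 (0.92, limma adjusted p = 0.0868). The test of the difference between the 2 genotypes' changes with age passed in none of the named members.

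The same 212 members can be read in other ago1-10 pairings, as a description. In 165 all 21-day ago1-10 arrays lay below all arrays of the second Ler set (18.3% of all probe sets), in 173 below all 21-day Col arrays (20.6%), and in 156 the 9-day arrays lay below all 9-day Col arrays (17.9%). In 141 members all 35-day arrays lay below the first Ler set (11.0% of all probe sets). These pairings share arrays with the choice of members. With the third 21-day ago1-10 array exchanged for the first 35-day array, by the numbers in their titles, 232 probe sets met the rule, and with ago1-10 arrays of 1 strain code only, 224 did.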

How the data were processed

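Each deposited value is a linear intensity summarised over the probes of a set, which the authors computed by MAS5, as the submitters' processing notes record. The scaling target is not given in the sources used here. All 37 arrays have a column in 1 deposited table, and 0 other per-sample columns were found. The table writes readings of 1000 or more with a point between digit groups, so the 7913 cells with exactly 3 decimals (491 probe sets) were multiplied by 1000. The filter kept 6112 probe sets that passed 12.2 (the 40th percentile over the table) on 3 or more arrays. Arrays were then scaled to a common median and put on the scale log2(signal + 1.2), where 1.2 is the 10th percentile. A log2 difference of a probe set near 12.2 depends on that constant.

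Group means were fitted to the 37 arrays together in limma (3.58.1, R 4.3.3) with an intensity trend in eBayes, so that groups share 1 estimate of the spread. Tests were two-sided, with Benjamini-Hochberg adjustment over all 6112 probe sets and a threshold of 0.05. The procedure was tested on simulated data. The members, lists and the rule for named genes were chosen with earlier results of these data known. Named genes are the 12 annotated members with the lowest mean of both differences, members of the role lists, up to 6 per direction called without overlap in each test, and the 3 nearest the threshold on each side. BGLU33, IQD22 and HAT2 were added after their values were seen. Gene names come from the platform annotation, updated through the TAIR10.1 gene table. These hold no descriptions of function, so the families and roles given are background knowledge, although it was planned to describe genes as annotated. Of the 212 members 144 have names that end in _at alone; the others may read more than 1 transcript. The series text calls samples biological replicates, and p-values measure the spread between these arrays.

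Replicate letters are shared by Col and ago1-11 at 21 days. Deviations of same-letter arrays from their group means correlated at 0.301, 0.228 and 0.425. The letters were used as a block in an alternative model only, a choice made from the data and not from the labels. Arrays with different letters were not compared, so these values cannot show that the letters pair the arrays. For dcl1-9 and the second Ler set, arrays with the same number correlated at 0.179, 0.105 and 0.0575 where the Ler title holds WT. The correlation was -0.304 for the array whose title holds Ler. These arrays were not paired. Alternatives covered quantile and trimmed-mean scaling, constants of 1 and 16, no filter, the 3-decimal readings as written, models of the compared groups only, and each array left out in turn. Figures used Python 3.11.15 with matplotlib 3.10.9.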

Additional observations from a re-analysis of the deposited data

Results flagged for a closer look

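Of 172 values tested in the groups of 4 arrays, over the named probe sets and the median over members, 14 had 1 array apart from the other 3 by Dixon's criterion, which chance gives in about 1 of 20. In 9-day ago1-10, UGT74D1 read 3.77 on replicate 1, under 10.4 to 11.0 on the others. In 9-day ago1-11, replicate 1 was high for AT4G36530 (89.9 against 51.9 to 55.3), AT2G21960 (314 against 114 to 132) and AT2G40620 (48.4 against 34.1 to 36.1). Replicate 4 of that group was low for AT4G29020 (767 against 1187 to 1193) and high for AT2G26690 (203 against 158 to 164), and replicate 2 was low for AT2G01610 (21.4 against 29.3 to 29.8). The 4 arrays of that group carry 4 strain codes.

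In the second Ler set, replicate 1 had a median over members of 0.56 on the relative log2 scale, above 0.28 to 0.32 on the other arrays, and AT1G51400 at 755 against 315 to 363. The title of this array holds Ler, whereas the titles of the other arrays in the set hold WT. Whether that goes with the height of its members was not tested. Replicate 4 of that set was high for BGLU33 (38.1 against 27.2 to 27.5). In dcl1-9, replicate 1 was low for AT1G65230 (79.6 against 125 to 130.5) and AT2G29310 (50.0 against 103 to 104), replicate 2 for AT2G30150 (38.9 against 51.1 to 53.7) and replicate 3 for TAPX (57.9 against 85.7 to 90.5). An unnamed probe set had a difference between ago1-11 and Col that changed from 9 to 21 days by -2.87 (limma adjusted p = 0.00608), the single member for which the test of this change passed.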

How the results depend on the processing

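The number of probe sets that meet the rule stayed within 1.5 times 212 in every alternative run, from 144 with a stricter difference of -1 to 258 without the second array of the first Ler set. Quantile normalization kept 175 of the members among 184, and a constant of 16 kept 148. Readings with 3 decimals taken as written left 146 of the members among 156. The count of members lower in dcl1-9 moved most. It was 4 as reported, 2 with trimmed-mean scaling, 1 with no filter, 0 with 3-decimal readings as written and 0 with the replicate number as a block. It was 14 with all 7 Ler arrays. These include the first Ler set, which chose the members, so part of that count is fixed by the choice. With only the groups compared it was 43 (3 higher), and on leaving out an array it was 0 to 6. Taking the replicate letters as a block gave 93 members lower in 21-day ago1-11 minus Col, against 44 in the same arrays without the block and 59 in the model of all arrays, and the blocked fits ended the dcl1-9 calls of AAH (limma adjusted p = 0.154) and AT4G36530 (0.180). Leaving out an array gave 21 to 44 lower and 7 to 11 higher for ago1-11 minus Col at 9 days, 37 to 57 and 3 to 5 at 21 days, and 22 to 42 and 3 to 5 against the second Ler set. It gave 65 to 147 lower at 35 days, 8 to 22 lower and 3 to 6 higher for the second Ler set minus Col, 1 to 2 lower and 3 to 10 higher with age in Col, 3 to 9 lower and 4 to 6 higher with age in ago1-11, and 1 to 8 lower and 0 to 1 higher for the difference between those changes. With only the groups compared, 2 members were higher in 21-day ago1-11 minus Col, 12 higher against the second Ler set, 74 lower at 35 days and 5 lower with age in ago1-11. With 3-decimal readings as written the counts were 8 higher in 21-day ago1-11 minus Col, 5 higher at 35 days, 5 lower with age in ago1-11 and 1 higher for the difference between changes. The second Ler set minus Col had 14 members lower under quantile normalization and 15 under trimmed-mean scaling. The difference between changes had 2 lower with trimmed-mean scaling and 3 lower and 1 higher with a constant of 16, and age in Col had 2 lower with no filter. Signs reversed only for 2 bright probe sets with 3-decimal readings as written, a setting that divides single readings by 1000: CP5 in 21-day ago1-11 minus Col (7.65) and in the second Ler set minus Col (7.004), and AT4G29020 with age in Col (7.45) and in ago1-11 (2.72). Of 92 calls of named members followed, 45 were lost in at least 1 alternative, 24 of them only on leaving out an array. For the other moves the cause was not tested. On leaving out an array, and in most other alternatives, the share called over all probe sets was not counted. Where that share is missing, here or above, a move among the members cannot be told from a move over all probe sets. Dim members, with signals near 12.2, are limited by background, and groups of 3 or 4 arrays limit the precision.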
